A study of Mus musculus with 16 samples.

Results

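The receptor tyrosine kinases MET, KIT, AXL, DDR1, DDR2, PDGFRα and PDGFRβ and the ligands HGF, KITL and GAS6 were followed in the developing mouse stomach through the transcripts of their 10 genes, 7 receptors and 3 ligands. The members were the entries of the expression table with the symbols *Met*, *Hgf*, *Kit*, *Kitl*, *Axl*, *Gas6*, *Ddr1*, *Ddr2*, *Pdgfra* and *Pdgfrb*, which were 10 of the 53711 genes kept. All 10 were found, and their levels were read in all 16 libraries.

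These receptors span the membrane once and, when their ligand binds, phosphorylate each other on tyrosines that recruit adaptors of the RAS/MAPK and PI3K pathways. In gut organs the ligand and the receptor often lie in different tissue layers. HGF is classically made by mesenchyme for epithelial MET, and PDGF-A by epithelium for mesenchymal PDGFRα, so that each pair can carry a signal between the layers. KITL acts on KIT of mast cells, melanocytes, germ cells and the pacemaker interstitial cells of the gut wall, GAS6 bridges exposed phosphatidylserine to AXL and its relatives, and the discoidin domain receptors DDR1 and DDR2 bind collagens instead of soluble factors.

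RNA-seq had been made from sorted cells of embryos that carried 2 knock-in reporters, EGFP at *Sox2* and tdTomato at *Gata4*, each on 1 allele. Epithelial cells positive for EPCAM were divided by both reporters into Sox2hi cells, which lie in the proximal stomach, Gata4hi cells of the distal stomach, and Sox2midGata4mid cells of the zone between them where the squamous–columnar junction forms. At E13.5 there were 3 Sox2hi, 2 Sox2midGata4mid and 3 Gata4hi libraries, and at E11.5 there was 1 library each of Sox2hi and Gata4hi cells. PDGFRα-positive fibroblasts, labelled with the same reporter strain, were taken from the proximal and the distal stomach on 3 days, E13.5, E15.5 and also E17.5, with 1 library for each region and day. All groups therefore shared the heterozygous state of *Sox2* and *Gata4*, no library came from cells without a reporter allele, and every fibroblast library had been selected for the product of 1 of the members, *Pdgfra*. No treatment was given, and the labels do not say how many embryos or litters stand behind a library, so the p-values below measure only the spread between these libraries.

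Levels are given as FPKM, read fragments counted per transcript length and per library depth, a scale on which genes can be set side by side. The low values gave an implied depth of about 16800000 to 45400000 reads per library, and 12316 to 12840 genes reached 1 FPKM. The labelled cell types had their defining transcripts: 6 epithelial genes summed to 1004 to 1628 FPKM in the epithelial libraries and to 2.42 to 8.85 FPKM in the fibroblasts, and 7 mesenchymal genes summed to 17.1 to 48.8 FPKM in the epithelium and to 4836 FPKM or more in the fibroblasts. The highest mesenchymal sum in epithelium, 48.8 FPKM, was that of the E11.5 Gata4hi library. Among the epithelial libraries of E13.5, those of the same gate correlated at 0.934 to 0.949 and those of different gates at 0.882 to 0.936, so the ranges overlapped slightly. The E11.5 and fibroblast libraries have no replicate and were not part of this check.

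Receptors and ligands were divided between the layers at E13.5. *Met*, *Kitl*, *Gas6* and *Ddr1* were higher in epithelium, *Axl*, *Ddr2*, *Pdgfra* and *Pdgfrb* were higher in fibroblasts, and *Kit* was abundant in both. The comparison took the mean of the 3 epithelial gates against the mean of the 2 fibroblast regions with limma on log2(FPKM + 1), over the 13502 genes averaging 1 FPKM or more, and genes were called where the p, adjusted by the method of Benjamini and Hochberg, was under 0.05. Of the 9 members tested 4 were higher and 4 lower in epithelium, with a median log2 fold change of 0.32 against −0.08 over all genes tested; 53.8% of all genes were called, so a called share of this kind is not particular to the members. *Pdgfra* is counted here although the fibroblasts were sorted on its product, and *Ddr2* and *Pdgfra* reached the minimum only through the fibroblasts. *Hgf* was under it. Among all genes called 43.3% were higher in epithelium, and after rescaling to TPM, in which every library has the same sum, 70.3%, with a shift of the median gene by 0.36 on the log2 scale; no called member changed direction under that scale or under quantile normalization, by which the share was 53.5% and the shift 0.12.

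**Figure D1:**
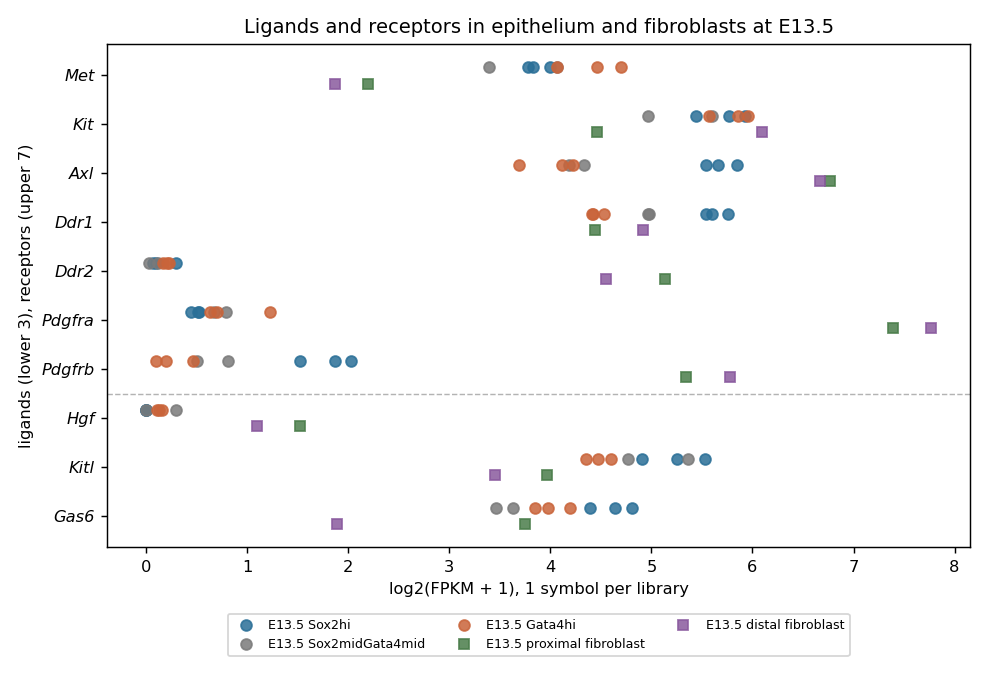
Levels of the 3 ligands and 7 receptors at E13.5, as log2(FPKM + 1) with 1 symbol per library: circles are the 8 epithelial libraries by gate and squares the 2 fibroblast libraries by region. *Axl*, *Ddr2*, *Pdgfra* and *Pdgfrb* lie to the right in fibroblasts and *Met* in epithelium, while for *Kit* the fibroblast squares, 20.99 and 67.5 FPKM, lie on both sides of the epithelial circles.

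For the MET pair the receptor was in the epithelium and the ligand in the fibroblasts. *Met* (ENSMUSG00000009376.15, chr6:17463800-17573980 of GRCm38, plus strand) had 14.9, 13.2 and 12.7 FPKM in Sox2hi cells, 15.8 and 9.51 FPKM in Sox2midGata4mid cells and 25.0, 15.8 and 20.99 FPKM in Gata4hi cells at E13.5, against 3.57 FPKM in proximal and 2.66 FPKM in distal fibroblasts. Every epithelial library lay above both fibroblast libraries, with a mean of the gates 5.02-fold that of the fibroblasts (log2 fold change 1.97, SE 0.21, limma adjusted p = 5.3e-05). *Hgf* (ENSMUSG00000028864.7, chr5:16553495-16620152, plus strand) was listed at 0 in all 3 Sox2hi libraries of E13.5 and in Sox2midGata4mid replicate 2, at 0.222 FPKM in Sox2midGata4mid replicate 1, and at 0.0768, 0.0928 and 0.117 FPKM in Gata4hi cells. These values above 0 stand for about 6.94 to 28.8 reads each. In fibroblasts of the same day *Hgf* had 1.87 FPKM in the proximal and 1.13 FPKM in the distal library. The ligand was thus low even where it was present, at less than the fibroblasts' own *Met*.

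HGF leaves the cell as an inactive precursor that serine proteases cut, and transcripts of several such proteases and of their inhibitors were higher in epithelium. Of the 11 genes listed around MET 7 were tested and 5 were higher in epithelium and none lower; under quantile scaling *Cd44* was lower (adjusted p = 0.0474). The largest differences were those of *St14* (matriptase, log2 fold change 5.43), *Spint2* (5.29) and *Spint1* (5.10), which encode the protease inhibitors HAI-2 and HAI-1, and *Tmprss2* (5.10). Hepsin, another activating protease encoded by *Hpn*, had 20.0 to 30.5 FPKM in the 8 epithelial libraries and 1.303 and 0.155 FPKM in the fibroblasts. *Hgfac*, the HGF activator of plasma, did not exceed 1.09 FPKM in any E13.5 library. *St14*, *Spint1*, *Tmprss2* and *Hpn* reached the minimum for the test only through the epithelium.

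For the KIT pair both genes were expressed in both layers. *Kit* (ENSMUSG00000005672.12, chr5:75574916-75656722, plus strand) had 53.6, 42.4 and 59.6 FPKM in Sox2hi cells, 47.4 and 30.3 FPKM in Sox2midGata4mid cells and 56.9, 46.5 and 61.1 FPKM in Gata4hi cells. In fibroblasts of E13.5 it had 20.99 FPKM in the proximal and 67.5 FPKM in the distal library, below and above the whole epithelial range. The layers did not differ by the test (log2 fold change 0.32, 95% interval −0.50 to 1.14, adjusted p = 0.485), but this rests on the distal fibroblast library: without it the epithelium was higher by 1.14 (adjusted p = 0.0091). Mast cell transcripts were close to absent, with a sum over 5 genes of at most 1.12 FPKM in any epithelial and 0.669 FPKM in any fibroblast library. Among markers of the interstitial cells of Cajal, *Etv1* stayed under 1 FPKM in every Sox2hi and Sox2midGata4mid library, had 2.59 to 3.42 FPKM in Gata4hi cells and 15.2 and 16.95 FPKM in proximal and distal fibroblasts of E13.5, and *Ano1* had 33.1 and 27.1 FPKM there. *Ano1* was not limited to fibroblasts. At E13.5 it had 8.85 to 12.3 FPKM in Sox2hi, 38.0 and 29.0 FPKM in Sox2midGata4mid and 36.0 to 42.1 FPKM in Gata4hi cells. Their part in fibroblast *Kit* was not tested.

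*Kitl* (ENSMUSG00000019966.18, chr10:100015630-100100416, plus strand), which encodes a ligand made in membrane-bound and shed forms, had 45.1, 29.0 and 37.1 FPKM in Sox2hi cells, 40.2 and 26.2 FPKM in Sox2midGata4mid cells and 19.4, 21.1 and 23.3 FPKM in Gata4hi cells. The fibroblast libraries had 14.7 FPKM proximally and 9.93 FPKM distally, below every epithelial library. The epithelial mean was 2.48-fold the fibroblast mean (log2 fold change 1.21, SE 0.21, adjusted p = 0.0011). Ligand and receptor of this pair were therefore transcribed together in the same sorted epithelial gates; whether in the same cells cannot be read from bulk libraries, where fewer cells of a type and less RNA per cell cannot be told apart either.

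For the AXL pair the receptor was highest in fibroblasts and the ligand was present in both layers. *Axl* (ENSMUSG00000002602.16, chr7:25757273-25788705, minus strand) had 49.4, 45.6 and 56.7 FPKM in Sox2hi cells, 17.1 and 19.1 FPKM in Sox2midGata4mid cells and 16.3, 11.9 and 17.7 FPKM in Gata4hi cells, and 108 and 101 FPKM in proximal and distal fibroblasts. The fibroblast mean was 3.74-fold the epithelial mean (epithelium against fibroblasts, log2 fold change −2.07, SE 0.14, adjusted p = 3.4e-06). *Gas6* (ENSMUSG00000031451.6, chr8:13465374-13494490, minus strand) had 27.0, 20.0 and 23.9 FPKM in Sox2hi cells, 11.4 and 10.03 FPKM in Sox2midGata4mid cells, 14.7, 17.2 and 13.4 FPKM in Gata4hi cells, and 12.4 FPKM in proximal but 2.69 FPKM in distal fibroblasts. Proximal fibroblasts thus lay within the epithelial range and distal fibroblasts below it. The call of *Gas6* as higher in epithelium (log2 fold change 1.24, SE 0.38, adjusted p = 0.0213) was lost without the distal fibroblast library (0.31, adjusted p = 0.198).

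Of the other TAM genes 1 was higher in epithelium and 2 in fibroblasts. *Tyro3*, a receptor of the same class, was higher in epithelium (log2 fold change 1.32), at 24.9 to 30.9 FPKM against 10.1 and 11.2 FPKM. *Pros1*, which encodes the related ligand protein S, was lower in epithelium (−3.04), at 0.570 to 1.73 FPKM against 17.53 and 12.3 FPKM. The third receptor, *Mertk*, was also lower there (−1.07). *Pros1* and *Mertk* averaged under 1 FPKM in epithelium and reached the minimum only through the fibroblasts. At E13.5 epithelium thus had the receptor *Tyro3* and the ligand *Gas6*, and fibroblasts the receptors *Axl* and *Mertk* and the ligand *Pros1*, each at the higher level.

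Of the collagen receptors DDR2 was split by layer and DDR1 was present in both. *Ddr1* (ENSMUSG00000003534.17, chr17:35681567-35704621, minus strand), the member of the pair that is typical of epithelia, had 53.0, 47.5 and 45.6 FPKM in Sox2hi cells, 30.6 and 30.3 FPKM in Sox2midGata4mid cells, 22.1, 20.3 and 20.4 FPKM in Gata4hi cells, and 20.8 and 29.1 FPKM in proximal and distal fibroblasts. The fibroblasts lay below the Sox2hi range and at or near the values of the other gates. The small epithelial excess of *Ddr1* (1.34-fold, log2 fold change 0.34, adjusted p = 0.0360) was lost in 8 of 16 alternatives: without the proximal fibroblast library it was 0.11 (adjusted p = 0.448), and without Sox2hi replicate 1 or 2, either Sox2midGata4mid replicate or Gata4hi replicate 1 the adjusted p was 0.0529 to 0.0616. *Ddr2* (ENSMUSG00000026674.9, chr1:169972307-170110762, minus strand) was at 0.0165 to 0.229 FPKM in the 8 epithelial libraries of E13.5 and at 34.2 and 22.4 FPKM in proximal and distal fibroblasts, a 270-fold difference of means (log2 fold change of FPKM + 1 −4.70, SE 0.19, adjusted p = 1.6e-07). A gene on the other strand, *3110045C21Rik*, overlaps *Ddr2* with a mean of 0.828 FPKM, and the strand setting of the counting was not given in the sources used here.

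Most collagen ligands of these receptors were fibroblast transcripts. Of 7 collagen genes tested 6 were lower in epithelium, led by *Col3a1* (log2 fold change −9.31), *Col1a1* (−7.99), *Col1a2* (−7.81) and *Col5a1* (−4.08), chains of the fibrillar collagens to which DDR2 binds. *Col3a1* had 1.44 to 13.1 FPKM in epithelium and 3512 and 2842 FPKM in fibroblasts. The exception was *Col2a1*, named for its direction after its values were seen: it was higher in epithelium (2.15), with 57.1 to 90.2 FPKM in Sox2hi cells, 23.9 and 30.2 FPKM in Sox2midGata4mid cells and 2.16 to 3.28 FPKM in Gata4hi cells. With that exception the called collagens were higher in the layer that had *Ddr2*.

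Both PDGF receptors were in the fibroblasts. *Pdgfra* (ENSMUSG00000029231.15, chr5:75152292-75198215, plus strand) had 0.354 to 1.34 FPKM in the 8 epithelial libraries of E13.5 and 166 and 217 FPKM in proximal and distal fibroblasts, 302-fold by the means; this follows the sort and is a description only. The highest epithelial value, 2.65 FPKM, was that of the E11.5 Gata4hi library, which also had the highest sum of mesenchymal genes. *Pdgfra* ends 376700 bases before *Kit* starts on the same strand, with no protein-coding gene between them, and the neighbours differed in their layer: *Pdgfra* was almost limited to fibroblasts and *Kit* was not.

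*Pdgfrb* (ENSMUSG00000024620.11, GRCm38 chromosome 18, 61045150 to 61085061, plus strand), the receptor of pericytes and other mural cells, had 39.4 and 53.9 FPKM in proximal and distal fibroblasts. In epithelium of E13.5 it had 2.66, 1.86 and 3.06 FPKM in Sox2hi cells, 0.415 and 0.746 FPKM in Sox2midGata4mid cells and 0.144, 0.0709 and 0.379 FPKM in Gata4hi cells. The fibroblast mean was 42.4-fold the epithelial mean (log2 fold change −4.66, SE 0.20, adjusted p = 1.8e-07).

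Most PDGF ligands lay on the other side of the pair. Of 6 genes for PDGF ligands, their activating protease and a receptor-like protein 3 were higher in epithelium, *Pdgfb* (log2 fold change 1.84), *Pdgfc* (1.37) and *Pdgfa* (1.03). The 2 lower ones were *Plat* (−3.66), tissue plasminogen activator, which cleaves PDGF-C, and *Pdgfrl* (−0.56). *Pdgfa* had 21.8 to 51.3 FPKM in epithelium and 14.7 and 15.2 FPKM in fibroblasts, and *Plat* had 0.390 to 1.13 FPKM against 19.1 and 22.4 FPKM. The fourth ligand gene, *Pdgfd*, did not pass the test (0.17, adjusted p = 0.636), with 3.21 and 0.970 FPKM in proximal and distal fibroblasts. The other 3 ligands were thus higher in epithelium and both receptors in fibroblasts, with fibroblasts also transcribing *Pdgfa*. On the TPM scale the call of *Pdgfrl* was lost (adjusted p = 0.107). *Plat* reached the minimum for the test only through the fibroblasts and *Pdgfb* only through the epithelium.

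The remaining lists differed between the layers in both directions. Of the class III receptors other than KIT and their ligands, *Il34* was higher (1.42) and *Csf1* lower (−2.49) in epithelium, and the other 3 listed were not tested. *Il34* reached the minimum for the test only through the epithelium and *Csf1* only through the fibroblasts. Of the 8 adaptors and ubiquitin ligases shared by these receptors 4 were higher and *Shc1* lower (−1.39), with *Pik3r1* (1.51), the regulatory subunit of PI3K, and *Cblb* (0.88), a ubiquitin ligase of receptor kinases, the highest. On the TPM scale *Grb2* (0.50) and *Crk* (0.38) were called higher as well.

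**Figure D2:**
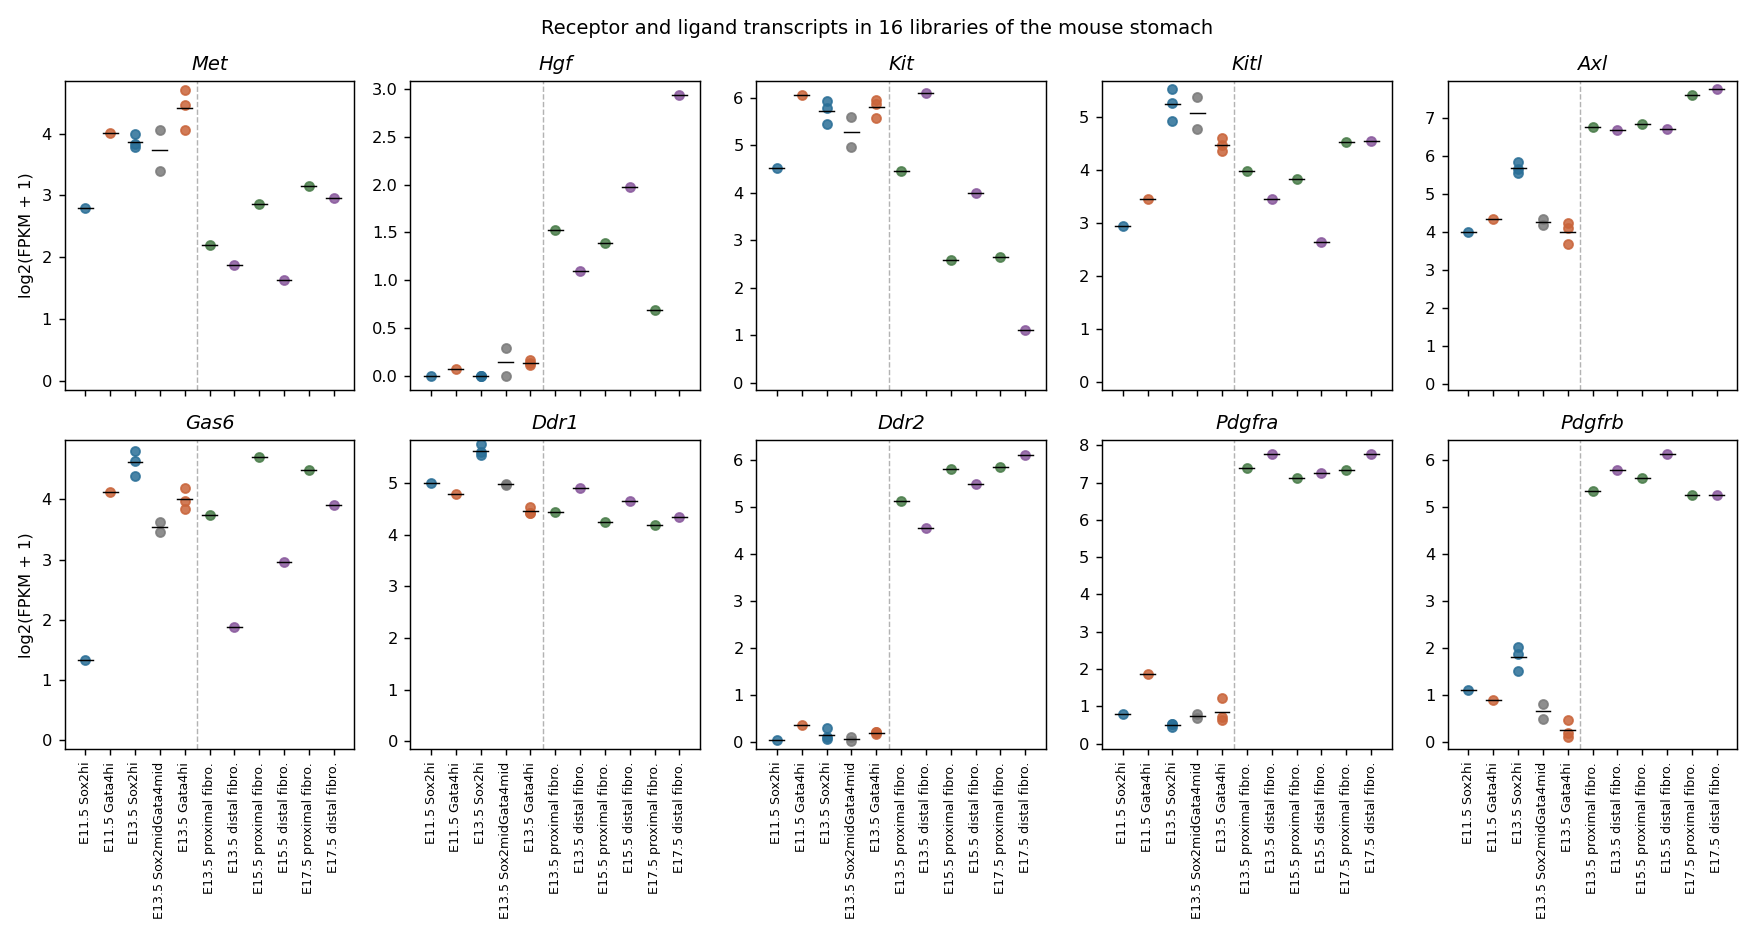
Level of each of the 10 members in all 16 libraries as log2(FPKM + 1), with epithelial groups left and fibroblast groups right of the dashed line and 1 point per library. *Ddr2*, *Pdgfra* and *Pdgfrb* rise sharply across the line, *Axl* is intermediate in Sox2hi cells of E13.5, and *Kit* falls in the later fibroblasts to 1.158 FPKM.

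Within the epithelium of E13.5 most of the tested members were highest in the proximal gate. Gata4hi cells had less *Axl*, *Ddr1*, *Kitl*, *Gas6* and *Pdgfrb* than Sox2hi cells, no tested member was higher, and *Kit* and *Met* did not pass the test. Of the 7 tested members 5 were lower, beside 21.6% of the 13127 genes called in either direction and 6.70% called lower; the median of the members was −0.76 against 0.08 over all genes. *Pdgfrb* reached the minimum of 1 FPKM only through the Sox2hi libraries, so its place among the 5 is a description only. *Hgf*, *Ddr2* and *Pdgfra* were under the minimum. Of the genes called 69.0% were higher in Gata4hi cells, 47.6% on the TPM scale and 52.4% under quantile scaling, which moved the median gene by −0.14 and −0.11; the 5 members kept their direction and their calls under both.

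*Axl* showed the largest fold among the abundant members. Its mean was 50.6 ± 5.64 FPKM (SD, n = 3) in Sox2hi cells, 18.1 ± 1.42 FPKM (n = 2) in Sox2midGata4mid cells and 15.3 ± 2.997 FPKM (n = 3) in Gata4hi cells. The lowest Sox2hi library, 45.6 FPKM, was far above the highest of the other gates, 19.1 FPKM. Gata4hi cells were 3.31-fold lower than Sox2hi cells (log2 fold change −1.67, SE 0.15, adjusted p = 2.2e-04), a call that held in 16 of 16 alternatives (adjusted p = 1.3e-04 to 0.0032). Sox2midGata4mid and Gata4hi cells, neighbours in the order of levels, did not differ by the test (0.25, adjusted p = 0.381).

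*Ddr1* fell through all 3 gates in order. Its means were 48.7 ± 3.80 FPKM in Sox2hi cells, 30.5 ± 0.156 FPKM in Sox2midGata4mid cells and 20.95 ± 1.03 FPKM in Gata4hi cells, with no overlap between any gates. Gata4hi cells were lower than Sox2hi cells by 2.33-fold (log2 fold change −1.18, SE 0.08, adjusted p = 7.1e-05, the call held in 16 of 16 alternatives). *Ddr1* was the only tested member for which Sox2midGata4mid cells differed from both other gates: they were lower than Sox2hi cells (−0.66, adjusted p = 0.0078) and higher than Gata4hi cells (0.52, adjusted p = 0.0118). The second of these calls was lost without Sox2midGata4mid replicate 1 (adjusted p = 0.0533) or replicate 2 (0.0667), and the first without replicate 1 (0.0580). An snRNA gene inside *Ddr1*, *Gm23864*, had a mean of 12.2 FPKM over the 16 libraries.

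*Gas6* was highest in Sox2hi cells, at 23.6 ± 3.54 FPKM against 10.7 ± 0.963 FPKM in Sox2midGata4mid and 15.1 ± 1.96 FPKM in Gata4hi cells. It was lower than in Sox2hi cells both in Gata4hi cells (log2 fold change −0.61, SE 0.14, adjusted p = 0.0173) and in Sox2midGata4mid cells (−1.07, SE 0.16, adjusted p = 0.0088). The first call was lost in 5 of 16 alternatives (limma adjusted p up to 0.121). Among these were leaving out Sox2hi replicate 1 or 3 or Gata4hi replicate 1 or 3 (adjusted p = 0.0519 to 0.0583). The second call was lost in 3 of 16 alternatives, among them leaving out either Sox2midGata4mid library. Sox2midGata4mid cells had the lowest values, but their difference from Gata4hi cells did not pass the test (−0.46, adjusted p = 0.0957). *Axl* and *Gas6* were thus both highest in the Sox2hi gate.

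*Axl*, *Gas6* and *Ddr1* were the members lower in both other gates by calls that most alternatives kept, and the stretches before their start sites are printed for that reason, a choice made after the values were seen. They are taken from RefSeq on GRCm38.p6, 5′ to 3′ on the strand of the gene, and end directly before the start site or, for the most upstream start of *Ddr1*, where a gene model begins. The printed windows are chr7:25788734-25788983 for *Axl*, chr8:13494536-13494785 for *Gas6* and chr17:35704622-35704849 for *Ddr1*, all on the minus strand.
Axl: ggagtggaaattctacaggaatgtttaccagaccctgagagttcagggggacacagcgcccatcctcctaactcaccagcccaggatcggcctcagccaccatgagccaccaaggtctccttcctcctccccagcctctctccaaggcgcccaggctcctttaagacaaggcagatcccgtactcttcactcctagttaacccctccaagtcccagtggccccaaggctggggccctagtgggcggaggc
Gas6: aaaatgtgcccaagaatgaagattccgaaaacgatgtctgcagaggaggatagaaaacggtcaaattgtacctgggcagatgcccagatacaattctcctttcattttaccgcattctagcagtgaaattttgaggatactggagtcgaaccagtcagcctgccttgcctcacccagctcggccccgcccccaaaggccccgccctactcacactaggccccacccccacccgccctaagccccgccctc
Ddr1: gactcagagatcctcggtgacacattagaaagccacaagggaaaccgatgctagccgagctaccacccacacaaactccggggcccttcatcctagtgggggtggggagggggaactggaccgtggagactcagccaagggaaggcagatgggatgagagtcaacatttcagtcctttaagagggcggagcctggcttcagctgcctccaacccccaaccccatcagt

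The reporters of the sort mark a GATA and a SOX factor, so the letters AGATAA or TGATAA and ACAATG or ACAAAG were searched on both strands of the 250 bases before each start. The table held 14 such windows for 9 of the 10 members. A GATA match was in 1 window and a SOX match in 1, both at further starts of *Ddr1*, against 16.6% and 25.2% of all 32841 windows of this length. None lies in the stretches printed, which therefore carry no capitals. A match is only a run of letters, and its lack in these windows says nothing about either factor.

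*Kitl* had 37.1 ± 8.02 FPKM in Sox2hi, 33.2 ± 9.92 FPKM in Sox2midGata4mid and 21.3 ± 1.96 FPKM in Gata4hi cells. It was 1.74-fold lower in Gata4hi than in Sox2hi cells (log2 fold change −0.76, SE 0.20, adjusted p = 0.0304), and the ranges did not overlap, with 29.0 FPKM as the lowest Sox2hi and 23.3 FPKM as the highest Gata4hi value. The call was lost in 7 of 16 alternatives, among them leaving out Sox2hi replicate 1 or 3 or any Gata4hi library (adjusted p = 0.0535 to 0.0986). Sox2midGata4mid cells did not differ from Sox2hi cells (−0.16, adjusted p = 0.729) or from Gata4hi cells (0.59, adjusted p = 0.124; on the TPM scale 0.89, adjusted p = 0.0432). Its receptor gene *Kit* did not follow it: Gata4hi and Sox2hi cells differed by 0.08 on the log2 scale (95% interval −0.37 to 0.53, adjusted p = 0.823).

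*Pdgfrb* was low throughout the epithelium, but every Sox2hi library lay above every other. Its means were 2.53 ± 0.611, 0.581 ± 0.234 and 0.198 ± 0.161 FPKM in Sox2hi, Sox2midGata4mid and Gata4hi cells. Gata4hi cells were lower than Sox2hi cells by 12.8-fold (log2 fold change of FPKM + 1 −1.55, SE 0.24). *Pdgfrb* reached the minimum for the test only through the Sox2hi libraries, so this difference is a description only. The sum of 7 mesenchymal genes, most of it *Vim*, was 22.8 to 28.0 FPKM in Sox2hi, 17.1 and 24.4 FPKM in Sox2midGata4mid and 27.1 to 38.1 FPKM in Gata4hi cells. Of these genes *Twist1* moved with *Pdgfrb*, at 6.24, 4.94 and 3.15 FPKM in Sox2hi, 0.106 and 0.551 FPKM in Sox2midGata4mid and 0.0308 to 0.113 FPKM in Gata4hi cells, while *Col1a1* had 1.29 to 3.55 FPKM in Sox2hi and 1.94 to 2.98 FPKM in Gata4hi cells. The part of mesenchymal transcripts in *Pdgfrb* was not tested. Of 5 pericyte genes 4, *Rgs5*, *Cspg4*, *Kcnj8* and *Abcc9*, were under 1 FPKM in every epithelial library, and the fifth, *Notch3*, had 20.5 to 24.2 FPKM in Sox2hi and 15.02 to 18.4 FPKM in Gata4hi cells.

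*Met* had its highest mean in Gata4hi cells, at 20.6 ± 4.63 FPKM against 13.62 ± 1.164 FPKM in Sox2hi and 12.6 ± 4.43 FPKM in Sox2midGata4mid cells. All 3 Gata4hi libraries lay above all 3 Sox2hi libraries, by as little as 15.8 against 14.9 FPKM, and the difference did not pass the test (log2 fold change 0.54, 95% interval 0.05 to 1.03, adjusted p = 0.116). With the replicate number as a block, which pairs same-numbered libraries, it passed (adjusted p = 0.0359), and so did the lower level in Sox2midGata4mid than in Gata4hi cells (−0.69, adjusted p = 0.0455; without the block −0.68, adjusted p = 0.104).

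Sox2midGata4mid cells were lower than Sox2hi cells for 4 of the 7 tested members, *Axl* (log2 fold change −1.43, adjusted p = 0.0037), *Gas6*, *Ddr1* and *Pdgfrb* (−1.15, adjusted p = 0.0490), beside 5.55% of all genes called in either direction; *Pdgfrb* was tested only because of its level in the Sox2hi libraries. This comparison uses the same Sox2hi libraries as that of Gata4hi cells, so the shared direction of both is not independent. The call of *Pdgfrb* was lost in 11 of 13 alternatives, with the replicate block (−1.04, adjusted p = 0.108), without Sox2hi replicate 2, either Sox2midGata4mid library or any Gata4hi library (0.0620 to 0.192) and on the TPM scale (0.0647). Against Gata4hi cells 1 of 7, *Ddr1*, was called, beside 13.6% of all genes. The share of called genes that were higher in Sox2midGata4mid cells was 45.7% against Sox2hi cells and 19.1% against Gata4hi cells, and on the TPM scale 67.3% and 67.9%, with shifts of the median gene of 0.12 and 0.27; after quantile normalization it was 52.7% and 48.4%. No called member turned its direction under either scale.

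**Figure D3:**
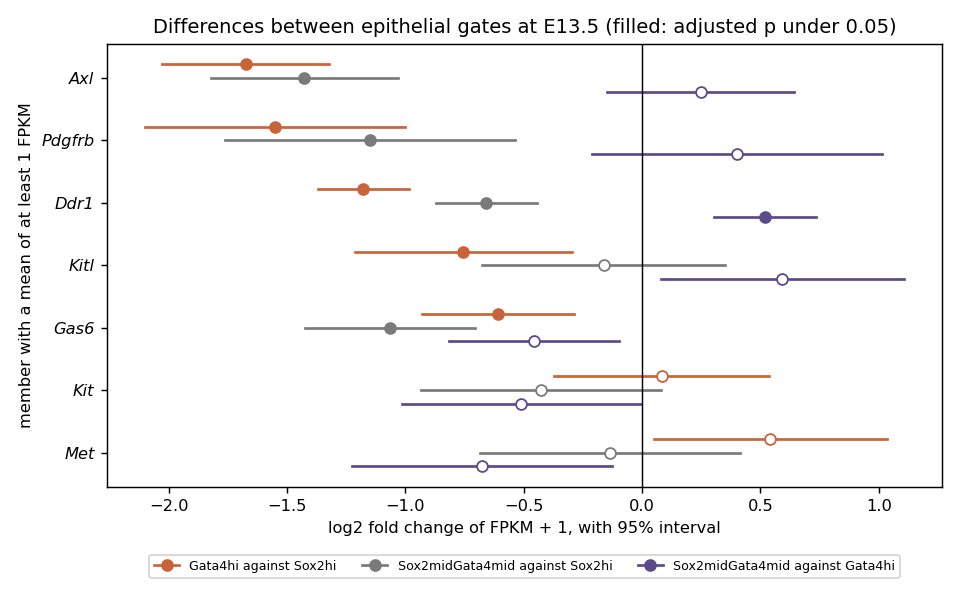
Log2 fold changes of FPKM + 1 between the epithelial gates of E13.5 for the 7 members averaging 1 FPKM or more, with 95% intervals, filled where the adjusted p was under 0.05. *Axl* lies at −1.67 and −1.43 in the comparisons with Sox2hi cells, *Ddr1* is filled in all 3 comparisons and *Kit* in none.

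Genes around the members also differed between Gata4hi and Sox2hi cells. Of the 7 collagen genes tested 4 were lower in Gata4hi cells and none higher, *Col2a1* (log2 fold change −4.38), *Col5a1* (−3.02), *Col4a2* (−1.72) and *Col4a1* (−0.54), a median of −0.54; the last pair encodes basement membrane collagen. *Col5a1* had 20.9 to 21.97 FPKM in Sox2hi and 1.38 to 2.25 FPKM in Gata4hi cells. *Ddr1* and these collagens were thus highest in the same gate. Of 5 PDGF genes tested 2 were lower, *Pdgfa* (−1.12) and *Pdgfc* (−0.96), and 2 higher, *Pdgfd* (2.27) and *Pdgfb* (0.88). *Pdgfa* had 49.5 to 51.3 FPKM in Sox2hi, 26.0 and 28.7 FPKM in Sox2midGata4mid and 21.8 to 23.5 FPKM in Gata4hi cells, and *Pdgfd* had 0.303 to 0.526, 2.40 and 2.55, and 4.69 to 7.98 FPKM. Between Gata4hi and Sox2hi cells the PDGF ligand genes therefore differed in both directions. *Pdgfd* averaged 0.425 FPKM in Sox2hi cells and reached the minimum only through the other gates. *Pdgfc* did not fall in the order of the gates, with means of 18.5 FPKM in Sox2midGata4mid and 20.0 FPKM in Gata4hi cells.

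Around MET the inhibitors of its ligand's proteases were higher in Gata4hi cells, *Spint1* (0.99) and *Spint2* (0.78), as was the protease gene *St14* (0.39), while *Gab1*, the docking adaptor of MET, was lower (−0.60); 7 of the 11 listed genes were tested. *Spint1* had 24.9 to 26.3 FPKM in Sox2hi and 48.4 to 56.0 FPKM in Gata4hi cells. *Tyro3*, the only other TAM gene tested, was not called. Of 8 shared adaptors and ubiquitin ligases *Cblb* was higher (0.72) and *Pik3r1* lower (−0.34). These calls held under TPM and quantile scaling, by which *Ptpn11* was also lower (adjusted p = 0.0232 and 0.0376).

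Means of Sox2midGata4mid cells lay between those of the other gates for several of these genes, but not for *Pdgfc* and *St14*. In Sox2hi, Sox2midGata4mid and Gata4hi cells *Pdgfc* averaged 39.9, 18.5 and 20.0 FPKM and *St14* 39.3, 37.2 and 51.8 FPKM. Sox2midGata4mid cells had less *Pdgfc* (−1.06), *Pdgfa* (−0.87), *Col5a1* (−1.48) and *Col2a1* (−1.47) and more *Pdgfd* (1.29) and *Cblb* (0.67) than Sox2hi cells. They had more *Col2a1* (2.92), *Col5a1* (1.54) and *Col4a2* (0.93) and less *Spint1* (−0.90), *Spint2* (−0.65), *St14* (−0.47) and *Pdgfd* (−0.98) than Gata4hi cells. The last 2 calls were lost on the TPM scale (adjusted p = 0.160 and 0.0858), on which *Pdgfa* was higher (0.55, adjusted p = 0.0085). *Col2a1* and *Col5a1* thus differed between all 3 gates.

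From E11.5 to E13.5 the ligand *Kitl* rose in the epithelium. It went from 6.63 to a mean of 37.1 FPKM in Sox2hi cells, 5.59-fold, and from 9.87 to 21.3 FPKM in Gata4hi cells, 2.15-fold (log2 fold change over both gates 1.66, SE 0.28, limma adjusted p = 0.0203). Gates of the same name differed in *Gata4* between the days, as given for *Gas6* below. Of the 7 tested members it was the 1 called, beside 5.69% of the 13114 genes. The call rested on the single E11.5 Sox2hi library: without it the difference was 1.03 (adjusted p = 0.105), and without the E11.5 Gata4hi library 5 members were called, *Gas6* (3.28), *Axl* (1.69), *Kit* (1.20) and *Ddr1* (0.62) beside *Kitl*. The share of called genes that were higher at E13.5 was 35.5%, and 65.0% on the TPM scale with a median shift of 0.12. *Met* (0.74, adjusted p = 0.0763) passed only without Gata4hi replicate 2 of E13.5 (0.84, adjusted p = 0.0462).

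The gates of E11.5 stood the other way round for *Gas6*. The E11.5 Sox2hi library had 1.53 FPKM and the Gata4hi library 16.3 FPKM, 10.7-fold more, whereas at E13.5 Sox2hi cells had more. In Sox2hi cells *Gas6* was 15.49-fold higher at E13.5 than at E11.5, and in Gata4hi cells the ratio was 0.927. Gates of the same name were not alike on both days in the genes of the sort. *Gata4* had 25.85 FPKM in the E11.5 Sox2hi library and 3.21 to 7.26 FPKM in the Sox2hi libraries of E13.5. In the Gata4hi gate it had 229 FPKM at E11.5 and 157 to 199 FPKM at E13.5. Whether the *Gas6* folds are changes within 1 population was not tested. The difference between the gates changed by −3.39 on the log2 scale (SE 0.29, limma adjusted p = 0.0074), with 1.26% of all genes called in this test. Each gate had 1 library at E11.5, so the spread of that day was not measured and was taken from the E13.5 replicates (4 residual degrees of freedom). The call held in 11 of 11 alternatives, none of which could leave out an E11.5 library. The low value stands for about 71.0 reads in the E11.5 Sox2hi library, against 1240 reads in the E11.5 Gata4hi library and 1726 to 2705 reads in the Sox2hi libraries of E13.5.

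The other 6 tested members had the same sign of change between the gates without passing. All these signs rest on the same single E11.5 library of each gate, so they are not independent. *Hgf*, *Ddr2* and *Pdgfra* were not tested. *Axl* had 14.9 FPKM in Sox2hi and 19.1 FPKM in Gata4hi cells at E11.5, without the excess of Sox2hi cells seen at E13.5 (change of the difference −2.01, adjusted p = 0.0548; 0.0451 under TPM and 0.0444 under quantile scaling). *Kit* had 21.9 and 65.6 FPKM, 2.997-fold more in Gata4hi cells, and at E13.5 the ranges of the gates overlapped (−1.46, adjusted p = 0.115). *Met* had 5.93 and 15.1 FPKM (−0.67, adjusted p = 0.507). *Ddr1* had 31.2 and 26.8 FPKM (−0.97, adjusted p = 0.0657), and with no minimum of expression this change passed (adjusted p = 0.0352). *Kitl* had 6.63 and 9.87 FPKM (−1.27, adjusted p = 0.188), *Pdgfrb* had 1.163 and 0.860 FPKM (−1.33, adjusted p = 0.242), and *Hgf* was listed at 0 and at 0.0466 FPKM.

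**Figure D4:**
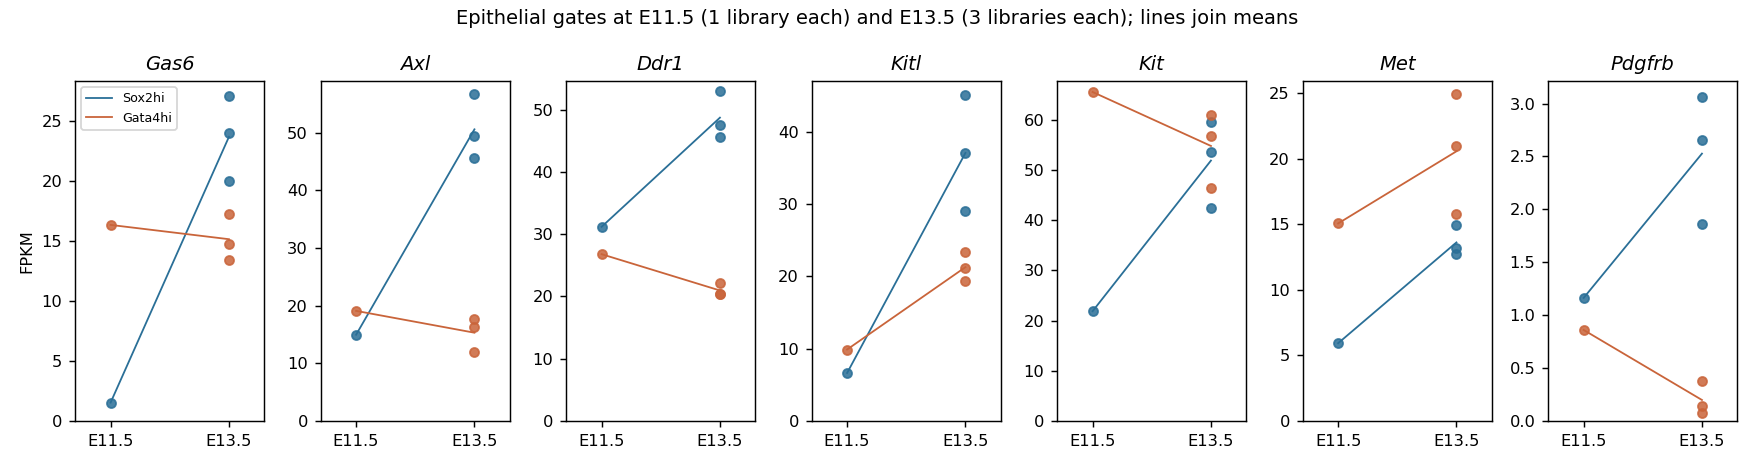
FPKM of members in Sox2hi and Gata4hi cells at E11.5, 1 library each, and at E13.5, 3 libraries each, with lines joining the means. For *Gas6* the lines cross, from 1.53 to 23.6 FPKM in Sox2hi and from 16.3 to 15.1 FPKM in Gata4hi cells, while both lines of *Kitl* rise.

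Of the companion genes few changed between the days. *Pdgfa* was higher at E13.5 (0.68) and *Plat* lower (−1.23), and of 7 collagen genes *Col4a1* (−1.01) and *Col4a2* (−0.99) were lower, the latter not under TPM (adjusted p = 0.0794) or quantile scaling (0.0749). *Plat* reached the minimum for the test only through the E11.5 libraries. No gene listed around MET, the TAM receptors, the other class III receptors or the adaptors was called, but *Tyro3* was higher on the TPM scale (0.38, adjusted p = 0.0426).

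In the fibroblasts the members moved in different directions from E13.5 to E17.5. *Kit* fell, *Axl*, *Ddr2* and *Gas6* rose, and *Pdgfra* and *Pdgfrb* did not pass the test. The comparison averaged the 2 regions, with day and region in the limma model and 2 residual degrees of freedom. Of 10 members tested 3 were higher and 1 lower, beside 37.1% of the 12900 genes called, 9.96% higher and 27.1% lower. A called share of this kind is thus not particular to the members. The members' median was 0.66 against −0.31 over all genes. The share of called genes that were higher was 26.9%, 56.4% on the TPM scale and 45.6% under quantile scaling, with shifts of the median gene by 0.31 and 0.21. Without the proximal or without the distal library of E13.5 these 4 members had an adjusted p of 0.0700 to 0.207 and none passed.

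On the 3 days in order *Kit* had 20.99, 4.97 and 5.27 FPKM in proximal fibroblasts and 67.5, 14.8 and 1.158 FPKM in distal fibroblasts. The fall from E13.5 to E17.5 was 3.98-fold proximally and 58.3-fold distally (log2 fold change −3.40, SE 0.83, adjusted p = 0.0345). Distal fibroblasts had 3.22-fold more than proximal ones at E13.5 and 4.55-fold less at E17.5. The call was lost in 8 of 11 alternatives (adjusted p = 0.0358 to 0.197 over all 11), among them the TPM scale (0.0568), quantile normalization (0.0513) and leaving out the proximal or distal library of E13.5 (−4.25, 0.115 and −2.55, 0.197) or of E15.5 (0.0787 and 0.0722). The interstitial cell marker *Ano1* had 33.1, 11.9 and 16.5 FPKM proximally and 27.1, 7.66 and 20.4 FPKM distally, lowest at E15.5, and *Etv1* had 15.2, 15.4 and 13.8 FPKM and 16.95, 24.9 and 14.6 FPKM. The part of interstitial cells in the fall of *Kit* was not tested.

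*Axl* rose in both regions, from 108 to 114 and 194 FPKM proximally and from 101 to 103 and 216 FPKM distally, with the step between E15.5 and E17.5. The rise from E13.5 was 1.80-fold and 2.14-fold (log2 fold change 0.96, SE 0.12, adjusted p = 0.0082), and it was lost in 2 of 11 alternatives, without the proximal (adjusted p = 0.0797) or the distal library of E13.5 (0.0700). *Ddr2* had 34.2, 55.4 and 56.9 FPKM proximally and 22.4, 44.4 and 68.5 FPKM distally (1.15, SE 0.23, adjusted p = 0.0209). *Gas6* had 12.4, 25.2 and 21.4 FPKM proximally and 2.69, 6.80 and 14.1 FPKM distally (1.39, SE 0.35, adjusted p = 0.0388). The calls of *Ddr2* and *Gas6* were lost in 6 and 7 of 11 alternatives, and for both without any library of E13.5 or E15.5 or the distal library of E17.5 (adjusted p = 0.0610 to 0.207). By E17.5 the receptor *Axl* and the ligand *Gas6* were therefore both higher than at E13.5 in the same fibroblast gate.

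*Hgf* had 1.87, 1.62 and 0.610 FPKM in proximal and 1.13, 2.94 and 6.66 FPKM in distal fibroblasts. The regions thus ran apart, 3.06-fold down proximally and 5.88-fold up distally, and distal fibroblasts of E17.5 had 10.9-fold more than proximal ones; with 1 library for each point this has no replicate check, and over both regions *Hgf* was not called (0.51, adjusted p = 0.576). *Plau*, the gene of urokinase, which can also cleave the HGF precursor, had 29.2 FPKM in the same distal library and at most 1.67 FPKM in the other 5, a comparison made after its values were seen. *Met* itself had 3.57, 6.23 and 7.90 FPKM proximally and 2.66, 2.11 and 6.76 FPKM distally (1.02, adjusted p = 0.0579; 1.44, adjusted p = 0.0395 under TPM and 0.0481 under quantile scaling).

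*Kitl* had 14.7, 13.1 and 21.9 FPKM proximally and 9.93, 5.26 and 22.3 FPKM distally, so both regions were highest at E17.5, when *Kit* was at its lowest distally (0.82, adjusted p = 0.0948; 1.20 and 0.04999 on the TPM scale). *Ddr1* had 20.8, 18.03 and 17.3 FPKM and 29.1, 24.4 and 19.2 FPKM (−0.41, adjusted p = 0.0807). *Pdgfra* stayed between 139 and 217 FPKM (−0.03, adjusted p = 0.842). *Pdgfrb* had 39.4, 48.0 and 37.2 FPKM proximally and 53.9, 68.2 and 37.2 FPKM distally (−0.30, adjusted p = 0.208), while the sum of 5 pericyte genes was 82.5, 70.7 and 70.2 FPKM proximally and above that distally, reaching 246 FPKM at E15.5 and 127 FPKM at E17.5. Both were higher distally at E13.5 and E15.5, but at E17.5 the pericyte sum was higher distally and *Pdgfrb* was not; the part of pericyte transcripts in it was not tested.

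**Figure D5:**
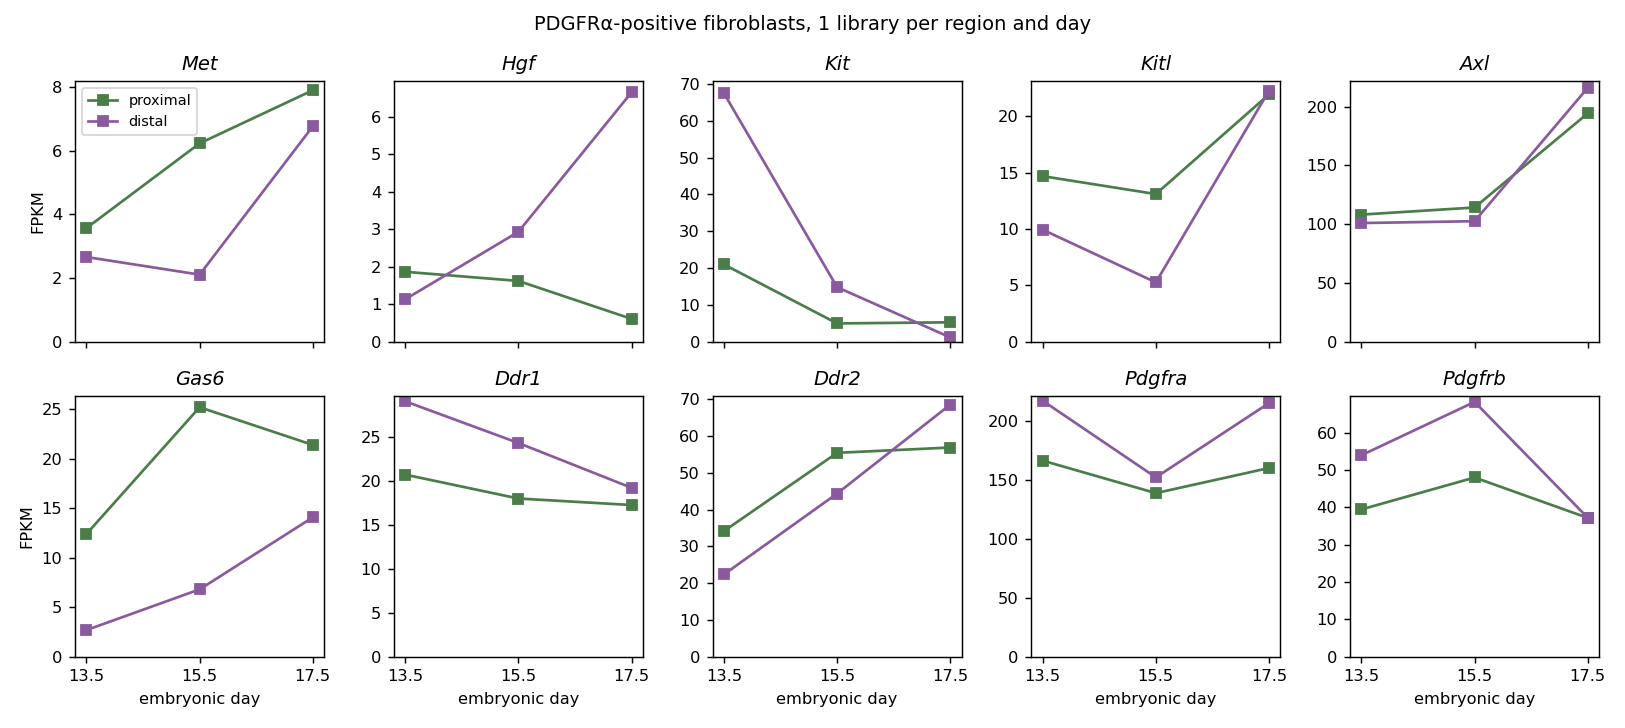
FPKM of members in proximal and distal PDGFRα-positive fibroblasts on the 3 embryonic days, 1 library per point. *Kit* falls in both regions, from 67.5 to 1.158 FPKM distally, *Axl* rises to 194 and 216 FPKM, and the regional lines of *Hgf* run apart.

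Most of the listed collagen genes rose in the same libraries. Of 7 collagen genes tested 6 were higher at E17.5, led by the fibrillar chains *Col1a1* (3.13), *Col1a2* (2.87), *Col5a1* (2.37) and *Col3a1* (2.26). The 6 include *Col4a1* and *Col4a2* of basement membrane collagen. The fibrillar *Col2a1* was lower (−2.03), a call lost under TPM (adjusted p = 0.0551) and quantile scaling (0.0547). *Pros1* (1.91) and *Mertk* (0.66), 2 of the 3 TAM genes, were higher as *Axl* and *Gas6* were, *Pros1* with 17.53 and 57.3 FPKM proximally and 12.3 and 58.4 FPKM distally at E13.5 and E17.5. *Csf1*, the ligand of another class III receptor, was higher (2.66), and of the genes around MET *Cd44* was higher (3.51) and *Spint2* lower (−2.21). *Col2a1* and *Spint2* were under the minimum in both E17.5 libraries and were tested only because of their levels on earlier days. Of the PDGF genes *Pdgfrl* was higher (2.48) and *Plat* (−1.09) and *Pdgfa* (−0.84) were lower, *Pdgfa* not on the TPM scale (adjusted p = 0.144). Among adaptors *Pik3r1* was higher (1.70).

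Between distal and proximal fibroblasts no member was called. The test, over the 3 days, called 0% of the 12900 genes in limma, with 1287 genes at an unadjusted p under 0.05; no other tool was run. *Gas6* came nearest among the members, with less in distal fibroblasts on every day, 4.602-fold, 3.70-fold and 1.52-fold (log2 fold change −1.39, SE 0.29, unadjusted p = 0.0057, adjusted p = 0.352). *Pdgfra* (0.31, adjusted p = 0.424) and *Ddr1* (0.34, adjusted p = 0.466) were higher distally on every day, and *Axl* differed by −0.03 (adjusted p = 0.936). No companion gene was called.

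Genes with the most similar profile over the 16 libraries were found by Pearson correlation of log2(FPKM + 1). The 16 libraries share 2 layers, so a high value largely restates the layer, and no test is attached. *Ddr2* was most like *Pdlim3* (0.999), *Zcchc24* (0.998) and *Ogn* (0.998), *Pdgfra* most like *Lix1l* (0.997), *Emilin1* (0.996) and *Foxf1* (0.996), and *Pdgfrb* most like *Anxa6* (0.991), *S1pr1* (0.990) and *Mcc* (0.986). *Axl* was nearest to *Tsku*, *Sesn1* and *Chst2* (all 0.977). Of the epithelial members *Met* was nearest to *Clu* (0.939), *Pdlim5* (0.931) and *Tspan13* (0.926), and *Ddr1* to *Dcx* (0.947), *Neu3* (0.937) and *Dapk2* (0.935). The nearest genes of *Kit* were *Abcb10* (0.937), *Opa1* (0.934) and *Atad3a* (0.932), which encode proteins of mitochondria. *Kitl*, with *Traf3ip2* at 0.906, and *Gas6*, with *Capg* at 0.841, had no neighbour above these values. *Hgf* had a mean under 1 FPKM and was not compared.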

How the data were processed

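The authors sorted the cells by FACS, made stranded polyA libraries, sequenced single reads of 75 bases and deposited their FPKM values as a single table, from trimming by cutadapt 1.16, alignment to mm10 by HISAT2 2.1.0 and quantification by Cufflinks 2.2.1; strand setting and library scaling of Cufflinks are not given in the sources used here. Of 53772 rows 61 were dropped because their gene identifier occurred again. Gene coordinates came from GENCODE M21, and 53614 of the 53711 genes kept matched it.

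The FPKM values hold no counts; 97.4% to 98.5% of low values lay within 0.05 of a whole number of reads (10% if fractions were even), which gave the implied depths. Depths and reads cover counting error only.

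Values were tested as log2(FPKM + 1) with limma 3.58.1 in R 4.3.3 (variance trend, 2.69 prior degrees of freedom in the comparison of Gata4hi with Sox2hi cells), for genes averaging 1 FPKM or more in the fitted libraries, with Benjamini-Hochberg adjustment over all genes tested. Adding 1 understates fold changes of low genes. Folds of FPKM are ratios of group means. Tables were handled in Python 3.11.15 (pandas 2.3.3, numpy 2.4.6) and with the R package data.table, version 1.17.8, and the fits were tested on simulated data.

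The members, the 6 companion lists with 41 genes and the tests were chosen with earlier results of these data known. Named were all 10 members, from each list at most 4 called genes of largest change per comparison and up to 4 of highest mean, and the 3 genes of most similar profile. Groups came from the labels. Labels of E13.5 replicates 1 and 2 follow 1 style, and those of replicate 3, E11.5 and the fibroblasts another; whether this marks a batch is not stated. Same-numbered Sox2hi and Gata4hi libraries deviated weakly together from their group means (r = 0.113, 0.119 and 0.163, other pairs −0.099 to −0.016). For pairs with a Sox2midGata4mid library r was 0.085 to 0.157 where the numbers were the same and −0.157 to 0.030 where they were not. Deviations from a group mean cancel out within the group, so positive values for same-numbered pairs bring negative ones for the others. Whether the replicate numbers mark pairs is not stated and was not settled by these values. The main tests did not use such a pairing, and the replicate block was an alternative only. Alternatives were another pseudocount, no filter, TPM and quantile scaling, no variance trend, other sets of libraries, the replicate block and leaving out each library.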

Additional observations from a re-analysis of the deposited data

Results flagged for a closer look

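*Gas6* differed between stages in its difference between the epithelial gates. At E11.5 the Gata4hi library had 16.3 FPKM and the Sox2hi library 1.53 FPKM, and at E13.5 Gata4hi cells had 15.1 ± 1.96 FPKM (SD, n = 3) and Sox2hi cells 23.6 ± 3.54 FPKM (n = 3). The test of the difference itself gave −3.39 on the log2 scale (limma adjusted p = 0.0074; 0.0055 to 0.0321 over 11 alternatives). It rests on 1 library for each gate at E11.5, whose spread was not measured and was taken from the E13.5 replicates, and no alternative could leave those libraries out. The mesenchymal gene sum of those libraries was 25.6 FPKM in Sox2hi and 48.8 FPKM in Gata4hi cells. *Gata4* had 25.85 FPKM in the E11.5 Sox2hi library and 3.21 to 7.26 FPKM in the Sox2hi libraries of E13.5. The part of either in the result was not tested.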

How the results depend on the processing

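Of the single values of members under the alternatives 447 kept their direction and side of the threshold, 66 were no longer called, 16 became called and no called value turned direction. Values not called changed sign for *Kit* between the layers without the proximal fibroblast library (−0.50) and for *Kit*, *Axl*, *Gas6* and *Ddr1* between epithelial stages without the E11.5 Sox2hi library (−0.26, −0.32, −0.11 and −0.34). The number of members called in Gata4hi against Sox2hi cells was 5, but 2 with replicates 1 and 2 only, and 2 to 5 when each library was left out. In Sox2midGata4mid against Sox2hi cells it was 4, but 2 with replicates 1 and 2 only, and 1 to 3 on leaving out libraries. Against Gata4hi cells it was 1, 2 on the TPM scale, 2 with the replicate block and 0 to 1 on leaving out libraries. Between the layers it was 8, 4 with libraries of the E11.5 and fibroblast label style only, and 7 to 8 on leaving out libraries. Between fibroblast stages it was 4, 1 with no filter, 2 with no variance trend and 0 to 4 on leaving out libraries; between epithelial stages 1, 0 with that label style only and 0 to 5 on leaving out libraries. The change of the gate difference had 1, and 2 with no filter and under TPM and quantile scaling. The causes were not tested, except that label-style and replicate subsets hold fewer libraries.

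Counts over all genes that moved by more than 1.5 times were those of Sox2midGata4mid against Sox2hi cells (728; 374 with only those groups, 339 with replicates 1 and 2 only, 240 to 624 on leaving out libraries) and against Gata4hi cells (1784; 1155, 1006 after quantile normalization, 532 to 1804), of the layers (7260; 1475 with the label style only), of fibroblast stages (4780; 2973 with no filter, 0 to 2538), of epithelial stages (746; 0 with the label style only, 226 to 926) and of the change of the gate difference (165; 71 with a pseudocount of 0.1, 932 with no filter, 76 to 123). The replicate block gave 2884, 510 and 1533 genes in the 3 gate comparisons and changed the calls of *Met* and *Pdgfrb* given in the report and no other member call. With n = 1 at E11.5 and for each fibroblast region and day, a left-out library leaves a lone sample assumed to vary like the rest.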
